A study of Rattus norvegicus with 12 samples.

Results

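Mbnl1 and Mbnl2 were knocked down together in differentiated PAC1 cells, an established line of rat pulmonary artery smooth muscle cells, and the resulting RNA-seq libraries (MBNL KD) were set against libraries of the same cells given a control siRNA (D1). The 6 libraries, 3 in each group, were chosen by their treatment labels and are 6 of the 12 in the series. The other 6 are 3 libraries of a knockdown of Rbpms in the differentiated cells (RBPMS KD1) and 3 of proliferative cells that received the control siRNA (P). RBPMS KD1 serves below as another knockdown from the same experiment, and P enters alternative fits only. Cells of both groups compared were PAC1-D cells grown in serum, and both received 90 pmol of siRNA. The labels put a second dose after 24 h and harvest 48 h after that, while the study's methods give longer intervals. The titles of the knockdown libraries name MBNL1 alone, and their treatment field names both genes. All 33294 genes of the count table entered the analysis, of which 16053 had enough counts to be tested and 17241 did not.

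Muscleblind-like (MBNL) proteins are zinc finger RNA-binding proteins that recognise YGCY-like motifs. In the nucleus they activate or repress exons according to where they bind, and during development they help to switch transcripts of heart and skeletal muscle from fetal to adult isoforms. They also bind 3' untranslated regions, where they affect the stability and the localization of mRNAs. In myotonic dystrophy, expanded repeat RNA sequesters MBNL proteins, and CELF proteins act in opposition to them on many of the same exons. The gene-level counts analysed here report mRNA abundance and not isoforms.

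Which mRNAs a siRNA reaches is set by its guide strand, so the 3 siRNAs that separate the groups are shown. Each is the sense strand, 5' to 3', and in the MBNL siRNAs capitals mark the stretch opposite bases 2 to 8 of the guide, the seed, taking the guide as complementary to all but the UU overhang. C2 as given has no such end, so its seed is not marked.
C2, the scrambled control: aagguccggcucccccaaaug
MBNL1 THH2: cacggaauguaAAUUUGCauu
MBNL2: gaagaguaauuGCCUGCUuuu
Each target was hit with 1 siRNA, and 1 control sequence was used. Loss of MBNL proteins and any other action of these sequences therefore cannot be told apart, and matches to other transcripts were not tested.

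Total counts per library lay between 90196960 and 90725021 in D1 and between 80842635 and 89996117 in MBNL KD. MBNL KD replicate 3 had the lowest total and stood apart from the other knockdown libraries, with a mean chi-square per gene of 12.8 against each of them, where the other pairs of a group gave 3.68 to 5.44. The libraries of a group differed by more than sampling noise, so none was a copy of another. The labels do not say that replicates are separate cultures, and the methods speak of biological replicates. Values are counts scaled to a common library size, called scaled counts below, and fold changes are log2 of MBNL KD over D1 from edgeR's quasi-likelihood fit with a standard error (SE) and a Benjamini-Hochberg adjusted p over all 16053 genes. A gene is called where its adjusted p is under 0.05 and its log2 fold change lies beyond 1, and the verbs rose and fell are kept for genes with an adjusted p under 0.05. Per-gene values are comparable between libraries, not between genes, since gene length was not used. In cultures measured as a whole, fewer cells of a type and less RNA per cell cannot be told apart. Smooth muscle markers were abundant in both groups: 8 contractile mRNAs together held between 9420 and 9841 CPM (counts scaled to 1e+06 per library) in D1 and between 7818 and 7905 in MBNL KD. Several defining markers of other cell types (Ptprc and Itgam for leukocytes, Cdh5 and Kdr for endothelium, Epcam for epithelium) were at 0 counts in all 6 libraries. The summed endothelial list moved from between 280 and 286 CPM in D1 to between 299 and 309 in MBNL KD, of which Eng alone made up 85.6% and with 6 of 16 markers at or under 3 counts, and its part in the results was not tested. Eng and Flt1 together made up 95.0% of that sum, and Eng had a log2 fold change of -0.04. Of the 8 tested members of that list 3 rose and 0 fell by adjusted p (33.8% and 33.7% over all genes), with a median of 0.46. Among these, Erg (0.95) and Egfl7 (0.82) rose without being called. The leukocyte list, with 8 of 18 markers at or under 3 counts and Cd14 as 96.9% of its sum, held between 56.2 and 60.6 CPM in D1 and between 53.3 and 56.4 in MBNL KD. Its member Csf1r, the receptor for macrophage growth factor, was called higher, from 23.9, 19.1 and 25.8 to 50.5, 59.9 and 59.9 (1.30).

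The targeted mRNAs were reduced in every knockdown library. Mbnl1 had 29674, 29929 and 30522 scaled counts in the D1 libraries and 7092, 7104 and 7262 in the MBNL KD libraries. Mbnl2 had 15577, 15459 and 15779 in D1 and 4539, 4703 and 4653 in MBNL KD. No knockdown library came near a control library for either gene, and what remained was 23.8% of the D1 mean for Mbnl1 and 29.7% for Mbnl2. The log2 fold changes were -2.07 (SE 0.026, adjusted p = 1.7e-31, edgeR) and -1.75 (SE 0.025, adjusted p = 2.6e-30). Mbnl3, the paralog that no siRNA targeted, went the other way, from 1481, 1404 and 1407 in D1 to 2951, 2999 and 3100 in MBNL KD (log2 fold change 1.08, SE 0.043, adjusted p = 2.7e-19 by the same test). Its groups did not overlap either. Against RBPMS KD1 the Mbnl3 difference was 0.75 on the log2 scale and was not called, while Mbnl1 and Mbnl2 were called lower (log2 differences -2.19 and -1.93).

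**Figure D1:**
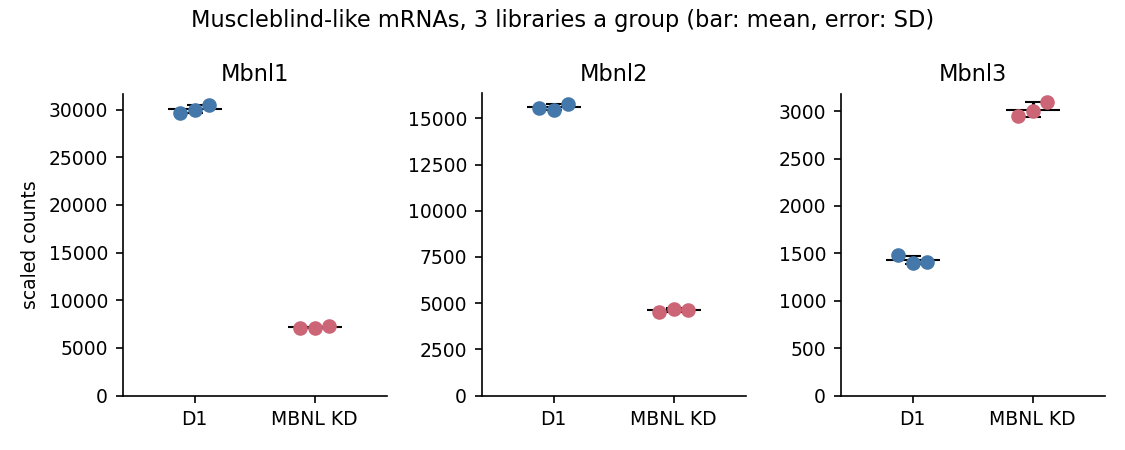
Scaled counts (y axis) of Mbnl1, Mbnl2 and Mbnl3 in each of the 3 D1 and 3 MBNL KD libraries (points), with the group mean (bar) and SD (error bar). Mbnl1 and Mbnl2 lie at 23.8% and 29.7% of their D1 means in the knockdown, and Mbnl3 lies above its D1 level in all 3 knockdown libraries.

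Of the 16053 genes tested, 979 were called higher and 664 lower in MBNL KD, which is 6.1% and 4.14% of them, and 10.2% in either direction. The adjusted p alone was under 0.05 for 33.8% of genes higher and 33.7% lower, at a biological coefficient of variation of 3.24% between replicates. Of the 1643 called genes, 1602 had groups that did not overlap. So did 35.2% of all genes tested in the higher and 35% in the lower direction, and 96.4% and 96.7% of those that rose and fell by adjusted p. The directions were unequal across abundance: among 3737 genes with a mean under 100 scaled counts 600 were called higher and 214 lower, whereas 40 were higher and 152 lower among the 3842 genes with at least 5000. In either direction 21.8% of the former and 5.0% of the latter were called. The 10.2% of all genes is therefore only a rough background for lists of low genes. Of 1192 long non-coding RNAs (lncRNAs) tested, 225 were higher and 46 lower (18.9% and 3.86%), against 640 and 579 of 13028 protein-coding genes. In genes that averaged at least 500 scaled counts over all 6 libraries, 12 lncRNAs were called higher and 2 lower of 79, and 154 protein-coding genes were called higher and 365 lower of 9831. Gene types were matched by symbol for 14439 genes. The share of calls that were higher was 59.6% here, 50.6% under quantile normalization, 54.0% with at least 10 counts in every library and 49.5% with limma on the authors' normalised values, which changes the test and the genes tested along with the scaling. Without MBNL KD replicate 3, 990 genes were called higher and 710 lower.

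**Figure D2:**
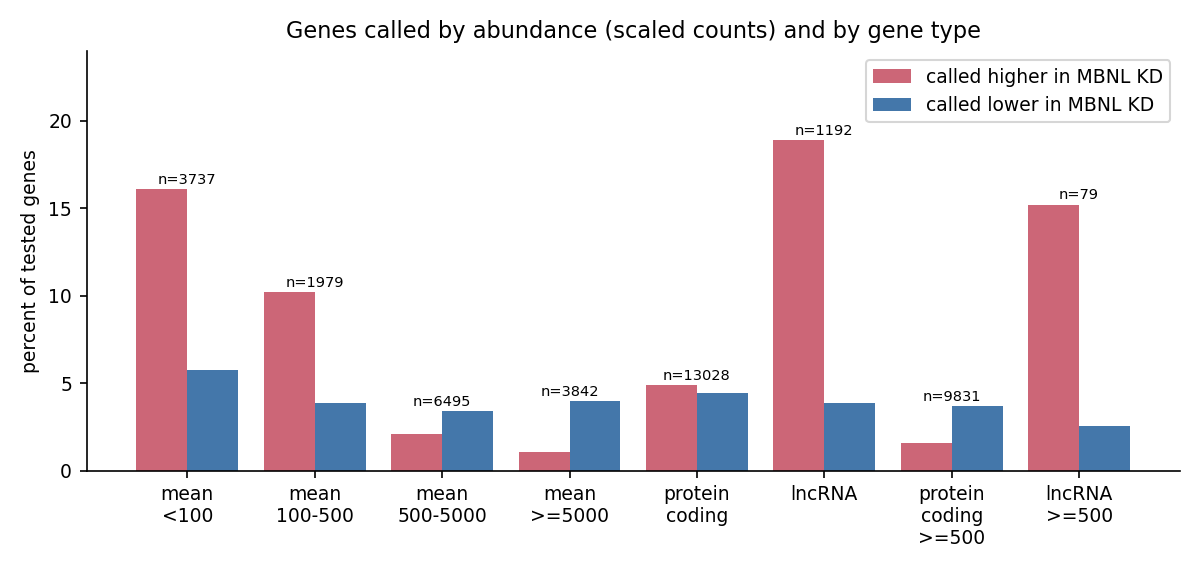
Percent of tested genes (y axis) called higher (red) or lower (blue) in MBNL KD, by mean scaled counts and by gene type, with the number of genes tested over each pair of bars. The bars for higher genes shrink from 16.1% under 100 scaled counts to 1.04% at 5000 and over, and for lncRNAs the bar for higher genes stands at 18.9% of all tested and at 15.2% of those that average 500 scaled counts and over in all 6 libraries.

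The largest falls among called genes whose mean was at least 500 scaled counts in either group were led by Smpd3. This gene, which encodes the neutral sphingomyelinase that makes ceramide at membranes, had 12936, 13428 and 13219 scaled counts in D1 and 614, 611 and 526 in MBNL KD (log2 fold change -4.49, SE 0.040, adjusted p = 1.0e-34, edgeR). Penk, the precursor of enkephalin peptides, went from 4134, 3948 and 4215 to 367, 230 and 341 (log2 fold change -3.71). Arrdc4, an alpha-arrestin adaptor, went from 883, 893 and 843 to 83.5, 119 and 105 (-3.09). For all 3 genes every knockdown library lay far below every control library. Akr1a1, an aldehyde reductase and another large fall, went from 43584, 44997 and 44689 to 6919, 6553 and 6976 (-2.70, SE 0.029). Cyb5r3, the cytochrome b5 reductase, went from 43919, 45579 and 44555 to 7919, 7882 and 7497 (-2.52, SE 0.028). Atp6v0e1, a subunit of the proton pump V-ATPase, had 6870, 6902 and 6990 in D1 and 869, 942 and 945 in MBNL KD (-2.91). In these 3 genes the knockdown values lay close together and below every control value. The remaining large falls were in Cmtm6 (-2.50), which stabilises membrane proteins such as PD-L1, Igfbp5 (-2.47), Tp53inp2 (-2.46), an autophagy regulator, Cyb561a3 (-2.37), Scamp2 (-2.25) and the sulfatase gene Arse (-2.18).

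Among rises under the same limit, which the 12 largest, apart from Ccl7, met in MBNL KD alone, Olr1 was the largest. This gene, the lectin-like receptor for oxidised LDL, had 137, 90.6 and 127 scaled counts in D1 and 2139, 2230 and 2136 in MBNL KD (log2 fold change 4.19, SE 0.085, adjusted p = 1.2e-26, edgeR). Il1rl1, the receptor for interleukin 33, went from 39.8, 22.1 and 41.7 to 501, 528 and 520 (3.89). Both genes were low in all control libraries, and no knockdown value came near them. Id1, an inhibitor of basic helix-loop-helix factors, went from 449, 432 and 414 to 2648, 2930 and 2746 (2.68, SE 0.058). Itga2, a subunit of a collagen-binding integrin, went from 310, 338 and 397 to 2232, 2223 and 2004 (2.63). The other rises were in Myom1, Smpx and Xirp1 of striated muscle, Cth of cysteine synthesis, the chemokines Ccl11 and Ccl7, the relaxin receptor Rxfp1 (2.73) and the desmosomal plakophilin Pkp2 (2.59), most of which are described with their groups. In MBNL KD against RBPMS KD1, a comparison that uses the same 3 MBNL KD libraries and so is not independent of the one with D1, the log2 difference was -4.85 for Smpd3 and 2.69 for Olr1. Igfbp5 was not called there, with 663, 653 and 641 in D1, 145, 112 and 94.1 in MBNL KD and a difference from RBPMS KD1 of -0.81.

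**Figure D3:**
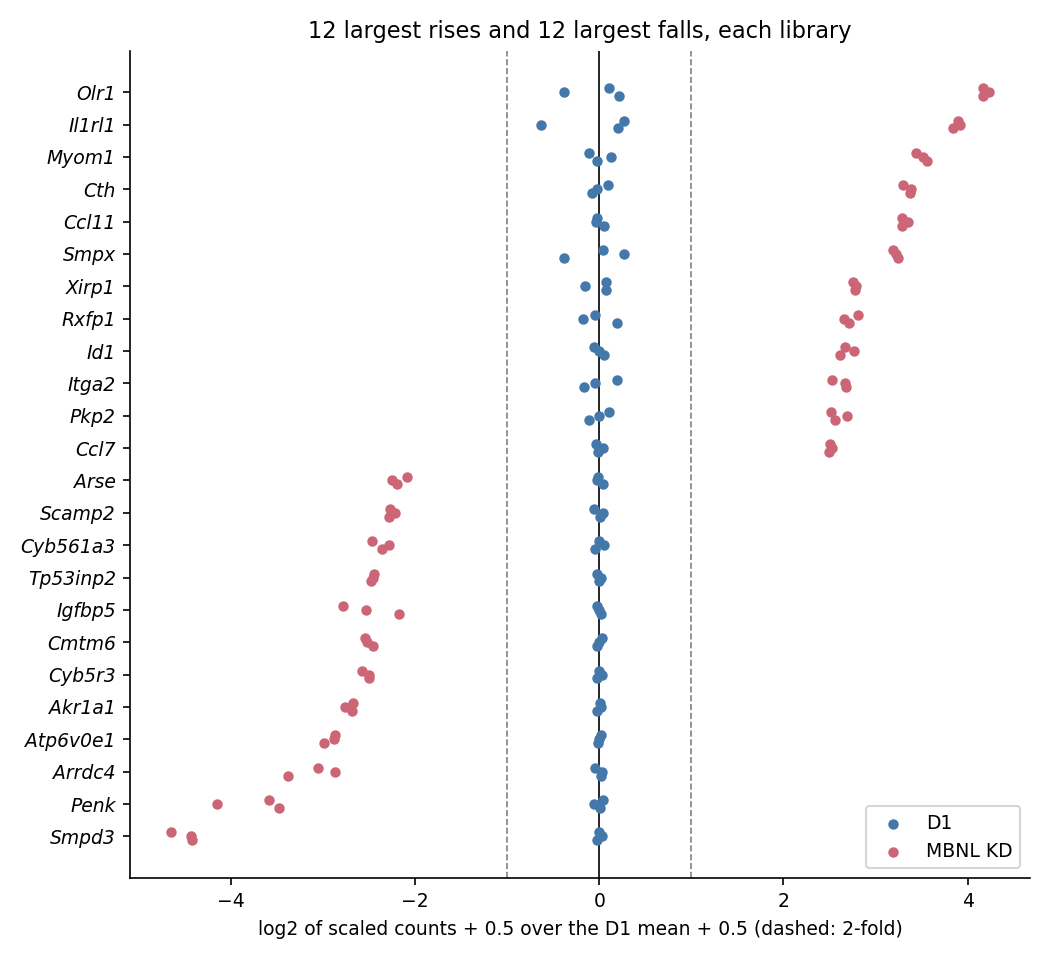
Each library of the 12 largest rises and 12 largest falls, as log2 of scaled counts over the D1 mean (x axis, 0.5 added to both), with D1 and MBNL KD in different colours and dashed lines at 2-fold. The 3 MBNL KD points of each gene sit together and apart from the 3 D1 points, from -4.49 for Smpd3 to 4.19 for Olr1.

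Some called genes took a large share of all counts. Thbs1, the matricellular thrombospondin 1, rose from 96898, 107144 and 102713 to 322369, 318867 and 328365 scaled counts (1.66), from 0.113% of all counts to 0.372%. Ccn2, a connective tissue growth factor, rose by a log2 fold change of 1.08. Htra1, a secreted serine protease, fell from 82255, 81293 and 82170 to 30616, 29233 and 28942 (-1.47). Tln1, the talin that links integrins to actin, fell by a log2 fold change of -1.02, and this call was lost under quantile normalization. In each of these genes the 2 groups did not overlap.

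Of 33 SR and hnRNP splicing factors tested 0 were called (background 10.2%). By adjusted p 9 of them rose and 21 fell (33.8% and 33.7% over all genes). Their median log2 fold change was -0.14, where that of all genes was 0.0099. Hnrnpd (-0.61) and Hnrnpdl (-0.51) had the largest changes among these factors. Ptbp1, a repressor of muscle exons, had 38673, 38280 and 38282 scaled counts in D1 and 38411, 38459 and 36693 in MBNL KD, and the groups overlapped. Of 26 tissue-restricted splicing regulators 3 were called higher and 2 lower (19.2%, background 10.2%). Celf3 rose from 53.8, 36.2 and 45.7 to 337, 350 and 368 (2.95, adjusted p = 9.1e-17, edgeR) and Celf4 from 35.8, 32.2 and 14.9 to 183, 172 and 142 (2.58). Both encode members of the CELF family and were low in D1. Celf1, which is the family member most often set against MBNL in myotonic dystrophy and is named here after its value was seen, had a log2 fold change of -0.18 (SE 0.025). Khdrbs3, a STAR-domain splicing regulator, fell from 821, 689 and 824 to 312, 323 and 350 (-1.25), and Raver1, a PTBP1 partner, fell by 1.04 on the log2 scale. Celf3, Celf4, Khdrbs3 and Raver1 were also called in the same directions against RBPMS KD1 (2.61, 2.93, -1.56 and -1.06).

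Several sarcomere genes of heart and skeletal muscle rose in these smooth muscle cells. Of the 46 genes on that list 25 had enough counts to be tested, and of these 12 were called higher and 2 lower (background 6.1% and 4.14%). A gene that is low in D1 could enter the test through its knockdown counts alone, so these counts describe the tested genes only. Myom1, the M-band protein myomesin 1, had 129, 143 and 121 scaled counts in D1 and 1549, 1508 and 1426 in MBNL KD (log2 fold change 3.51, SE 0.081, adjusted p = 2.7e-25, edgeR). Xirp1, an actin-binding protein of intercalated discs, had 119, 102 and 119 in D1 and 779, 785 and 769 in MBNL KD (2.78). Tnnc1, the calcium-binding troponin C of heart and slow muscle, went from 137, 175 and 137 to 759, 689 and 772 (2.30). All 3 rose several-fold in every knockdown library. Mybpc3, cardiac myosin-binding protein C, rose from 13.9, 26.2 and 21.9 to 323, 219 and 187 (3.55). Tnnt2, cardiac troponin T and a classical MBNL splicing target, rose from 262, 229 and 250 to 782, 688 and 784 (1.60). Mybpc3 was spread more widely among the knockdown libraries than Tnnt2, and neither gene's groups overlapped. Smpx, a small muscle protein outside that list, went from 47.8, 75.5 and 64.6 to 598, 590 and 573 (3.23). The called falls were in Ckm, muscle creatine kinase (85.6, 104 and 65.6 in D1 and 26.2, 37.7 and 23.5 in MBNL KD), and Myoz3, a Z-disc protein (51.8, 75.5 and 60.6 and 20.4, 18.4 and 27.8). Ankrd1, a stress-responsive muscle ankyrin protein and the one with the most counts on the list in D1, fell by 0.35 on the log2 scale. The median over the 25 tested genes was 1.06, and it was 0.60 under quantile normalization and 0.19 with limma on the normalised values.

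Smooth muscle cytoskeletal genes shifted in both directions with more falls. Of 48 tested 3 were called higher and 5 lower (background 6.1% and 4.14%), and by adjusted p 11 rose and 33 fell (background 33.8% and 33.7%). Pdlim1, a PDZ and LIM protein of stress fibres, fell from 16340, 15872 and 16152 to 3881, 3720 and 4078 (-2.05, SE 0.028). Synpo2, an actin-bundling protein of smooth and striated muscle, fell from 3585, 3675 and 3467 to 960, 1006 and 945 (-1.88), and Sorbs3, a vinculin partner, from 15209, 15300 and 15009 to 6060, 5972 and 5990 (-1.34). The 3 genes were lower in every knockdown library. Csrp1 also passed (-1.03), but not under quantile normalization. Des, the intermediate filament desmin, rose from 222, 233 and 203 to 609, 588 and 549 (1.41), and Cavin4, a caveolar protein of muscle, from 41.8, 56.3 and 45.7 to 197, 220 and 183 (2.06). None of the 8 contractile markers was called, while by adjusted p 2 rose and 6 fell. Runx2, a transcription factor of bone and calcifying vessels, rose from 89.6, 102 and 115 to 440, 431 and 382 (2.03), and Klf15 by 1.25 on the log2 scale.

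Mitotic genes fell, most by less than 2-fold. Of 60 mitotic genes 57 fell and 0 rose by adjusted p, and 11 were called lower and 0 higher (median log2 fold change -0.65, all genes 0.0099). Over all genes 33.7% fell by adjusted p and 4.14% were called lower. In each of the 57 the 2 groups did not overlap, which held for 96.7% of all genes that fell by adjusted p. Mki67, the Ki-67 proliferation antigen, had 21098, 20147 and 20921 scaled counts in D1 and 11249, 10780 and 11004 in MBNL KD (log2 fold change -0.91, SE 0.026, adjusted p = 3.2e-23, edgeR). Cenpf, a kinetochore protein, went from 10938, 11011 and 11248 to 4590, 4388 and 4394 (-1.31). Plk1, the mitotic kinase, went from 4354, 4077 and 4452 to 1802, 1785 and 1820 (-1.25). In these genes every control library lay above every knockdown library. Mybl2, a transcription factor of the late cell cycle, fell by 1.51 and the chromokinesin gene Kif4a by 1.22 on the log2 scale. Without MBNL KD replicate 3, 10 mitotic genes were called lower. Against RBPMS KD1, 0 of the 60 mitotic genes were called in either direction, with a difference of -0.36 for Cenpf, -0.48 for Mki67 and -0.94 for Plk1.

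Of 55 DNA replication genes tested, 44 fell and 7 rose by adjusted p (over all genes 33.7% and 33.8%). In that list 5 were called lower and 0 higher (9.09%), where 4.14% of all genes were called lower and 10.2% in either direction. Mcm6, a subunit of the replicative helicase, fell from 9652, 9206 and 9179 to 2476, 2467 and 2492 (-1.92, SE 0.031, adjusted p = 5.6e-29, edgeR). Rrm2, the regulated subunit of ribonucleotide reductase, fell from 3518, 3440 and 3734 to 1074, 1119 and 1047 (-1.72). Chaf1a, a histone chaperone, fell from 4098, 4155 and 4064 to 1296, 1256 and 1324 (-1.67), and E2f7, a repressor of the E2F family, from 1285, 1295 and 1264 to 441, 444 and 522 (-1.45). All 4 were also called lower than in RBPMS KD1 (log2 differences -1.67, -1.05, -1.43 and -1.08 in that order). Of the regulators of G1 and p53 targets, 23 of 38 rose and 10 fell by adjusted p (median 0.25), while 1 was called higher and 2 lower (7.89%, background 10.2%). Ccnd2, cyclin D2, rose from 186, 179 and 252 to 492, 428 and 446 (1.15), while Rb1, the retinoblastoma gene, fell from 3155, 3253 and 3148 to 1494, 1396 and 1516 (-1.12) and Sesn1, a p53 target, by 1.16 on the log2 scale.

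Most members of the mitotic and replication lists fell, and the 250 bases before their starts were searched on both strands for 3 textbook motifs, with RefSeq promoters of the GRCr8 build (the files use mRatBN7.2). Each gene symbol was counted once, with a match if any of its promoters held the motif. The background was all symbols with a promoter, tested or not, and these shares describe the lists, not the knockdown. The cell cycle homology region core TTTGAA occurred in 25 of 51 mitotic promoters with a sequence (49.0%) and in 4 of 44 replication promoters (9.09%), where 17.2% of 27457 symbols held it. The E2F forms TTTCGCGC or TTTGGCGC occurred in 9 of 44 replication promoters (20.5%) and 2 of 51 mitotic ones, with 0.717% overall. The 9 were Gins1, Mcm2, Mcm5, Mcm6, Mcm7, Mcm8, Pola1, Tyms and Uhrf1. Windows of 60 bases, 5' to 3' along the gene, are shown for a pair of mitotic genes and for Mcm6, with all matches on either strand in capitals. The Top2a window was picked for its match, after its value was seen.
Mki67, chr1:199952660-199952719, minus strand: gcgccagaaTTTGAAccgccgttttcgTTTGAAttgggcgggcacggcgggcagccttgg
Top2a, chr10:84473094-84473153, minus strand: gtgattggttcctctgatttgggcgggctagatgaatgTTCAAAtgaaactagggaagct
Mcm6, chr13:42404454-42404513, minus strand: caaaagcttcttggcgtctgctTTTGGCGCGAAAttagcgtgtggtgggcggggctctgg
Mki67 held 2 matches, the nearer at 94 to 99 bases before the start, Top2a 1 at 17 to 22 bases, and Mcm6 2 matches that overlap, one on each strand. A match describes letters in the sequence and is not a measured binding site.

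**Figure D4:**
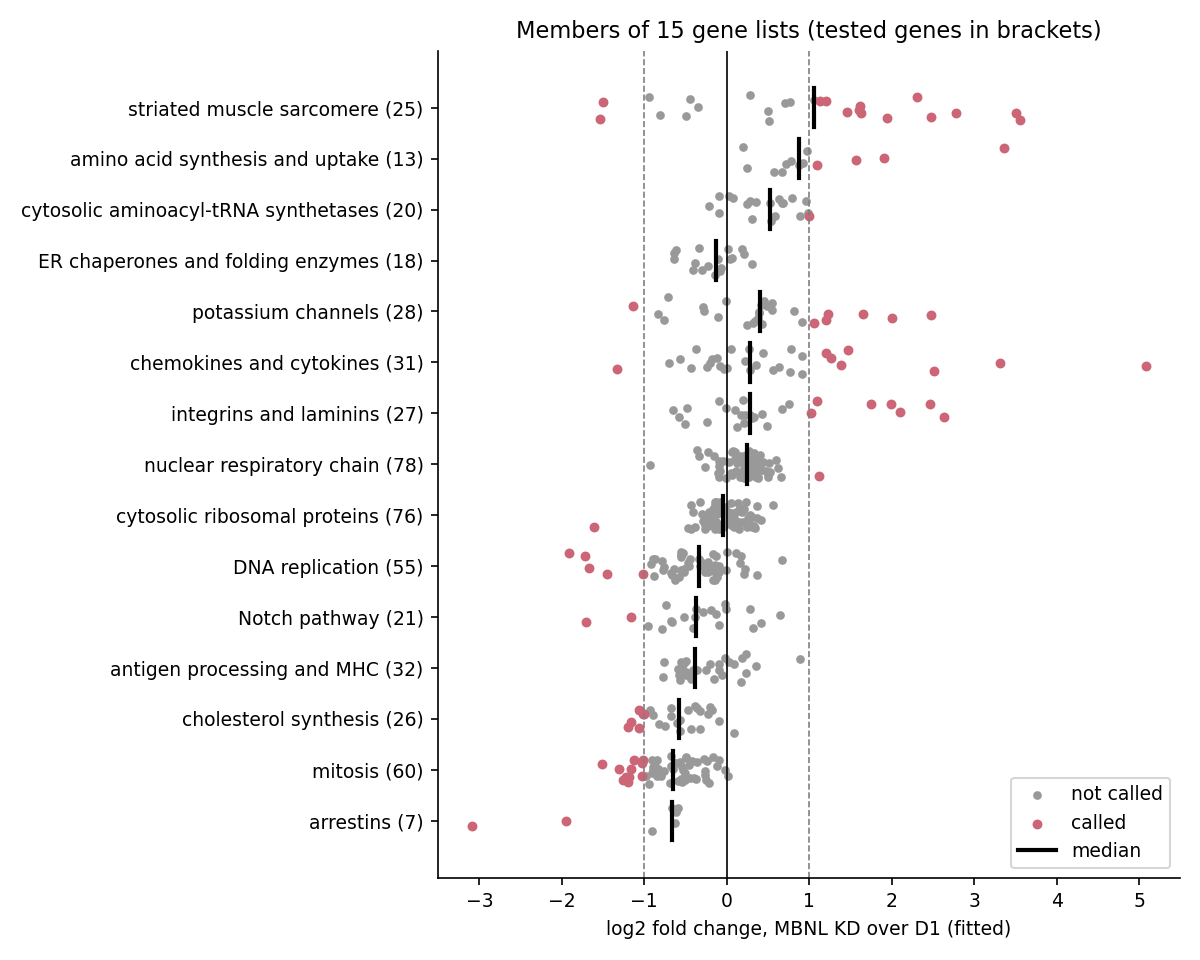
Fitted log2 fold changes of MBNL KD over D1 (x axis) for each tested gene of 15 gene lists (rows), with called genes in red, the others in grey, a black bar at the list's median and dashed lines at 1 and -1. The mitotic, cholesterol and arrestin rows lie left of 0 almost throughout, the amino acid row lies right of 0, and the sarcomere row is spread over more than 4 units.

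Genes of amino acid supply rose. The stress list that held them together with chaperones of the endoplasmic reticulum had 7 of 47 genes called higher and 0 lower (over all genes 6.1% and 4.14% called, 33.8% and 33.7% by adjusted p), and narrower lists were drawn up after its values were seen, so their counts are descriptions. Of 13 genes of amino acid synthesis and uptake 13 rose by adjusted p and 4 were called, with a median log2 fold change of 0.88. Cth, the cystathionine lyase that makes cysteine, had 91.6, 94.6 and 103 scaled counts in D1 and 1004, 1016 and 956 in MBNL KD (log2 fold change 3.36, SE 0.092, adjusted p = 1.8e-23, edgeR). Pycr1, a proline synthesis enzyme, went from 1173, 1173 and 1049 to 4313, 4254 and 4150 (1.91). Asns, asparagine synthetase, went from 4021, 3943 and 3887 to 12004, 11857 and 11349 (1.57). The knockdown libraries of these genes stood close together and well above the controls. Slc7a11, the cystine transporter, rose by 1.09 and the pseudokinase gene Trib3 by 1.40 on the log2 scale. Of 20 cytosolic aminoacyl-tRNA synthetases 16 rose and 3 fell by adjusted p (median 0.53), led by Eprs with 37097, 35657 and 37237 in D1 and 74161, 73442 and 72668 in MBNL KD. Eprs lay at the threshold (1.00) and was under it without a filter on low counts (0.99), without D1 replicate 2 (0.97) and without MBNL KD replicate 1 (0.99). Of 18 chaperones and folding enzymes 0 were called, 4 rose and 12 fell (median -0.13), with Calr at -0.08. Cth, Pycr1, Asns and Slc7a11 were called higher than in RBPMS KD1 as well, by 3.53, 1.97, 1.11 and 1.70, while Trib3 (0.96) and Eprs (0.95) were not called there.

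The composite element of ATF4 and C/EBP factors, searched as TTGCATCA on both strands, occurred in 4 of 40 promoters of the stress list (10.0%, against 0.725% of all 27457 symbols): Chac1, Herpud1, Nupr1 and Pycr1. The Pycr1 window is shown with the match in capitals, at 124 to 131 bases before the start.
Pycr1, chr10:106420910-106420969, minus strand: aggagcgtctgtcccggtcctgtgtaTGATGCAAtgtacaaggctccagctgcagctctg
Of the 12 amino acid genes with a promoter sequence, Pycr1 was the 1 with this element.

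Sterol synthesis genes fell together. Of 26 tested, 25 fell and 0 rose by adjusted p (33.7% and 33.8% over all genes), and 6 were called lower (background 4.14%), with a median log2 fold change of -0.58. In each of the 25 the groups did not overlap (96.7% of all falling genes). Fdps, farnesyl diphosphate synthase, had 21163, 21930 and 21259 scaled counts in D1 and 10384, 10448 and 9857 in MBNL KD (log2 fold change -1.07, SE 0.026, adjusted p = 1.3e-24, edgeR). Hmgcs1, which makes HMG-CoA, went from 24625, 26700 and 25556 to 16314, 16165 and 15713 (-0.67) and was not called. Both genes are abundant and their knockdown libraries were all below the controls. Stard4, a sterol carrier, fell by 1.16 and Tm7sf2, a sterol reductase, by 1.20. Several sat close to the fold threshold, and 2 members were called under quantile normalization and 4 without MBNL KD replicate 3. Against RBPMS KD1, 3 of the 26 were called lower.

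Other lipid genes gave both directions. Of 44 genes of fatty acid and triglyceride metabolism 4 were called lower and 0 higher (9.09%, where 4.14% of all genes were called lower and 10.2% in either direction). Scd, a stearoyl-CoA desaturase, fell from 5368, 5567 and 5671 to 1989, 2035 and 1907 (-1.48), Pdk4, a brake on pyruvate oxidation, from 144, 131 and 140 to 42.7, 32.9 and 43.9 (-1.80), and Fads2, a fatty acid desaturase, by 1.10. Of 30 sphingolipid enzymes 1 was called higher and 3 lower. Degs1, which introduces the double bond of ceramide, fell from 13899, 14408 and 14344 to 4287, 3959 and 3814 (-1.82, SE 0.031). Sgms2, a sphingomyelin synthase, rose from 1722, 1556 and 1647 to 3415, 3609 and 3597 (1.11). With Smpd3, the fall of Degs1 and the rise of Sgms2 were also called against RBPMS KD1 (-4.85, -1.51 and 1.31). Of 24 scavenger receptor and lipid transport genes, 2 were called higher, Olr1 and Fabp3 (19.9, 14.1 and 27.8 in D1 and 38.8, 56.1 and 83.4 in MBNL KD), and 2 lower, among them Soat1 (-1.04), a sterol esterifying enzyme.

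Lysosomal, V-ATPase, calpain and antioxidant genes were called at shares of 10.0%, 9.09%, 9.09% and 9.62%, near the 10.2% of all genes tested. The V-ATPase list of 22 tested genes had 2 called lower and 0 higher (4.14% and 6.1% over all genes), and the list's median was near 0. Of 50 lysosomal genes 4 were called lower and 1 higher. Ctsb, the protease cathepsin B, fell from 79385, 76348 and 79247 to 30233, 29260 and 28922 (-1.41, SE 0.026, adjusted p = 1.2e-27, edgeR). Tpp1, a lysosomal tripeptidyl peptidase, fell from 9331, 9682 and 9592 to 3344, 3399 and 3317 (-1.51), and Ppt1, which removes palmitate from proteins, from 3903, 3678 and 3583 to 1063, 984 and 1006 (-1.87). In all of them the knockdown values were far below every control value. Psap, the prosaposin gene with the most counts on that list, had a log2 fold change of -0.26. Capn9, a tissue-restricted calpain, fell from 316, 280 and 350 to 10.7, 13.5 and 13.9 (-4.62) and was the only called gene of 11 calpains and calpastatin tested. Its relative Capns1, the shared small subunit, was at -0.85. The 7 arrestin family genes tested all fell by adjusted p (median -0.66), as 33.7% of all genes did, and 2 were called. Txnip, an alpha-arrestin that binds thioredoxin, had 18015, 18684 and 18300 in D1 and 4841, 4701 and 4746 in MBNL KD (-1.94, SE 0.024). Sod1, the cytosolic superoxide dismutase, fell from 7099, 6871 and 7195 to 2101, 2027 and 1990 (-1.79), and Cbr3, a carbonyl reductase, from 1758, 1873 and 1842 to 552, 528 and 530 (-1.77). These were the 2 falls called among 52 NRF2 and antioxidant genes, where Mgst2 (1.20), Gstm1 (1.04, or 0.99 without D1 replicate 3) and Slc7a11 were the 3 rises. Sod1, Cbr3, Txnip, Ctsb, Tpp1, Ppt1 and Capn9 were each called lower than in RBPMS KD1 too.

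More matrix receptor genes were called higher than lower. Of 27 integrins and laminins tested 7 were called higher and 0 lower (over all genes 6.1% and 4.14%), and by adjusted p 18 rose and 4 fell (33.8% and 33.7%). Itga8, an integrin subunit of smooth muscle, had 528, 593 and 537 scaled counts in D1 and 2976, 3169 and 3019 in MBNL KD (log2 fold change 2.47, SE 0.054, adjusted p = 7.6e-26, edgeR). Itga9, which binds tenascin, went from 232, 208 and 223 to 925, 853 and 863 (1.99), and Lama3, a laminin chain, from 392, 340 and 362 to 1598, 1551 and 1539 (2.10). The groups of these genes were apart in every library. Itgb1, the common beta subunit, rose by 0.22 only. Of 61 matricellular, proteoglycan and elastic fibre genes 11 were called higher and 1 lower. Fbln2, an elastic fibre component, rose from 9762, 9901 and 10050 to 50313, 51369 and 48122 (2.33). Postn, periostin, rose from 1098, 1067 and 1167 to 5406, 5672 and 5414 (2.31), and the lysyl oxidase gene Loxl4 from 1593, 1420 and 1538 to 6429, 6490 and 6694 (2.11). Dcn, the proteoglycan decorin, was the 1 fall (1110, 1191 and 1048 to 465, 481 and 472, -1.24). Fibronectin (Fn1) rose by 0.55 and with that went from 1.35% to 2.04% of all counts. Of 31 collagens 4 were called higher and 0 lower: Col17a1 (2.85), Col4a3 (2.33), Col15a1 (10855, 11285 and 10876 to 27488, 26794 and 26864) and Col8a1 (1.07). Col3a1, the collagen with the most counts, was at -0.16. Among 40 matrix proteases and inhibitors 5 were called higher and 3 lower. Adamts9, a versican-cleaving protease, rose from 579, 632 and 553 to 2056, 2152 and 2134 (1.85), and Adamts2, the procollagen N-proteinase, fell from 31872, 33203 and 31823 to 14234, 14012 and 13702 (-1.21). The sum of 18 fibroblast and pericyte markers was between 2622 and 2646 CPM in D1 and between 2885 and 2918 in MBNL KD, with 59.0% of it from Pdgfrb and S100a4 (0.05 and 0.26). Of its 14 tested members 6 rose and 5 fell by adjusted p, 2 were called in each direction and the median was 0.048, with Cd34 at 0 counts in all 6 libraries and Rgs5 at or under 3, and its part in the matrix genes was not tested.

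In the TGF-beta and BMP pathway 9 of 44 tested genes were called higher and 2 lower, or 25.0%, where 10.2% of all genes were called. BMP ligands act through type I and type II receptors on SMAD factors, for which the Id genes are direct targets. Bmp6, a ligand, rose from 964, 926 and 881 to 2510, 2634 and 2394 (1.44, adjusted p = 1.6e-20, edgeR), and Bmpr1b, a type 1 receptor, from 47.8, 65.4 and 39.8 to 182, 184 and 185 (1.85). The groups of neither gene overlapped. Id2 rose from 423, 442 and 448 to 1305, 1137 and 1283 (1.50), and of the 4 Id genes 3 were called higher while Id4 had a log2 fold change of -0.061, as seen after the values were known. Inhbb, an activin subunit gene, fell by 1.30. Bmp6, Bmpr1b, Id1 and Id2 were called higher than in RBPMS KD1 too (1.40, 1.76, 1.86 and 1.73).

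Wnt genes were called in both directions, 4 higher and 4 lower of 37 (21.6% in all, background 10.2%). The ligand genes Wnt4 (324, 387 and 349 to 156, 124 and 135, -1.35) and Wnt5a (2120, 2377 and 2125 to 995, 1019 and 993, -1.14) fell, as did Rspo2, which amplifies Wnt signals (-1.98), and Axin2, a feedback target (497, 525 and 514 to 210, 216 and 210, -1.27). The Dishevelled inhibitor genes Nkd2 (933, 910 and 890 to 2475, 2561 and 2264, 1.42) and Nkd1 (1.20, or 0.99 without D1 replicate 3) rose, and so did the receptor genes Ror2 (1.12, or 0.92 without D1 replicate 2) and Lgr6 (2.74, or 3.40 without D1 replicate 3), the latter from at most 13.9 scaled counts in D1. Of 21 Notch genes 14 fell and 4 rose by adjusted p (median -0.37), against 33.7% and 33.8% of all genes, and 2 were called lower (9.52%, against 4.14% of all genes). Rbpj, the DNA-binding partner of Notch, fell from 13496, 12863 and 13209 to 5927, 5810 and 5967 (-1.16, SE 0.025). Notch3, the receptor of vascular smooth muscle, fell from 43411, 46915 and 42698 to 23242, 22533 and 22685 (-0.96) and lay just short of the fold threshold. Every library of both genes kept to its side.

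Growth factor genes included 8 of 46 called higher and 3 lower (23.9% in all, background 10.2%). Pdgfb, a smooth muscle mitogen, was close to the detection limit in D1 (1.99, 10.1 and 1.99 scaled counts) and had 64.1, 81.2 and 61.0 in MBNL KD, so its fitted log2 fold change of 3.85 depends on few counts and was 5.02 without D1 replicate 2. Pdgfd rose from 33.8, 40.2 and 33.8 to 145, 150 and 168 (2.10) and Fgf13, an intracellular member of the FGF family, from 31.9, 32.2 and 45.7 to 97.1, 124 and 96.3 (1.53). The receptor gene Pdgfrb had 79796, 78619 and 79142 in D1 and 82748, 80869 and 81720 in MBNL KD, and its adjusted p of 0.068 (edgeR) missed the threshold. Igfbp6, an IGF-binding protein, fell from 21219, 21003 and 21441 to 10082, 9860 and 9924 (-1.09), and Ntrk3, a neurotrophin receptor, by 1.17. Of 40 immediate early and YAP target genes, where 7.5% were called, only Ccn2 and Maff (1.14) were called higher and Axl, a receptor tyrosine kinase, lower (23199, 23257 and 23864 to 11712, 11320 and 11509, -1.03).

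Genes of vasoactive peptides and their receptors changed in both directions. Edn1, endothelin 1, had 121, 121 and 106 scaled counts in D1 and 190, 251 and 293 in MBNL KD (1.07, or 0.93 and not called without MBNL KD replicate 3). Adm, the vasodilator adrenomedullin, had 58.7, 90.6 and 89.4 and 21.4, 32.9 and 37.4 (-1.38). The peptide hormone genes Stc1 and Stc2 went apart, Stc1 from 2305, 2246 and 2187 to 862, 814 and 749 (-1.47) and Stc2 from 5.97, 4.02 and 5.96 to 56.3, 54.1 and 43.9 (3.24), a gene with few counts in D1. Of 41 vasoactive receptor, cGMP and RGS genes 6 were called higher and 1 lower (17.1% in all, background 10.2%). Bdkrb2, the B2 bradykinin receptor, rose from 7.96, 4.02 and 15.9 to 109, 154 and 125 (3.78, or 4.40 without D1 replicate 3), Rxfp1, the relaxin receptor, from 300, 233 and 255 to 1723, 1660 and 1851, and P2rx1, an ATP-gated channel of smooth muscle, from 55.8, 43.3 and 50.7 to 162, 205 and 154 (1.80). The receptors were low in every D1 library, and a gene low in D1 could enter the test through its knockdown counts alone. Pde4b, a cAMP phosphodiesterase, fell from 179, 180 and 202 to 67.0, 75.4 and 38.5 (-1.62), and Gucy1b1, a subunit of the nitric oxide receptor, fell by 0.89 and was not called.

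Of 28 potassium channel genes with enough counts 6 were called higher and 1 lower (25.0% in all, background 10.2%), while 45 more on the list were not tested. A channel gene low in D1 could enter the test through its knockdown counts alone. Of all tested genes under 100 scaled counts 21.8% were called. Kcnq5, a voltage-gated channel, rose from 698, 691 and 660 to 1602, 1539 and 1592 (1.21), and Kcnt2, a sodium-activated channel, from 128, 154 and 112 to 290, 341 and 295 (1.23). Kcnh2, the hERG channel gene and the one with the most counts of the list in D1, fell from 9844, 10510 and 9939 to 4750, 4609 and 4382 (-1.14). With limma on the normalised values 2 of these genes were called higher. Of 71 calcium, sodium and chloride handling genes 9 were called higher and 8 lower (23.9%). The sarcoplasmic reticulum genes Atp2a3 (11.9, 20.1 and 33.8 to 212, 214 and 179, 3.19), Pln (41.8, 39.2 and 36.8 to 109, 123 and 124, 1.59) and Ryr2 (115, 121 and 82.5 to 293, 321 and 292, 1.51), a calcium pump, the pump inhibitor phospholamban and a calcium release channel, rose. Atp2b4, the plasma membrane calcium pump, fell from 7684, 7778 and 7720 to 2675, 2463 and 2769 (-1.55), Orai3, a store-operated channel, from 2017, 1932 and 1755 to 676, 665 and 700 (-1.48), and Trpv2, a cation channel, from 2862, 3251 and 3118 to 1103, 1050 and 1178 (-1.47).

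Of 31 chemokines and cytokines 7 were called higher and 1 lower (background 6.1% and 4.14%), and 23 were not called. Ccl7 had 5401, 5584 and 5327 scaled counts in D1 and 30643, 31285 and 30968 in MBNL KD (log2 fold change 2.51, SE 0.027, adjusted p = 5.1e-33, edgeR). Ccl11, eotaxin, went from 119, 113 and 113 to 1129, 1177 and 1126 (3.31). Both attract leukocytes, and reads shared between close family members could have been split in counting. Il6 rose from 203, 198 and 223 to 551, 566 and 508 (1.38) and Il33, the ligand of Il1rl1, from 97.6, 101 and 87.5 to 286, 296 and 210 (1.47). Csf1, the macrophage growth factor, fell from 23178, 21800 and 23061 to 8957, 9107 and 9091 (-1.33), and Cxcl12, with the most counts of the list, by 0.20. Of 55 interferon-stimulated genes 4 were called higher and 4 lower (14.5% in all, background 10.2%). Cxcl10 fell from 728, 556 and 710 to 186, 149 and 217 (-1.86) and Bst2, an antiviral tether, from 256, 241 and 264 to 151, 59.9 and 143 (-1.11, or -0.79 and not called without MBNL KD replicate 2), whereas Slfn4 rose from 1420, 1312 and 1392 to 3154, 3030 and 3118 (1.17) and Gbp4 from 125, 141 and 125 to 321, 278 and 286 (1.18). Mx1 was called lower (-1.02) although its groups overlapped, and the call was lost without any 1 of D1 replicates 1 and 2 and MBNL KD replicates 2 and 3 (-0.91, -0.99, -0.81 and -0.82). Of 32 antigen processing and MHC genes 0 were called by edgeR, with 3 rising and 19 falling at an adjusted p under 0.05 (33.8% and 33.7% over all genes). Their median was -0.38. Of 18 complement genes 2 were called higher and 1 lower. Masp1, a lectin pathway protease, rose from 5159, 5150 and 4925 to 13381, 13826 and 13500 (1.42), C3ar1, the C3a receptor, from 47.8, 58.4 and 29.8 to 79.6, 102 and 105 (1.08, or 0.84 and not called without D1 replicate 3), and C1s fell from 3890, 3931 and 3896 to 1870, 1672 and 1784 (-1.14).

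Of 78 nuclear respiratory chain genes 62 rose and 10 fell by adjusted p (33.8% and 33.7% of all genes), with a median of 0.25 and 1 called, Cox4i2, a hypoxia-linked subunit named for being that 1, at 1.12. Of 13 mitochondrially encoded genes 0 were called by edgeR, and 3 rose and 5 fell at an adjusted p under 0.05, ND5 at -0.37. Of 43 glycolysis and hypoxia genes 0 were called higher and 4 lower (9.3%, against 4.14% of all genes called lower and 10.2% called in either direction). Pfkl, a phosphofructokinase subunit, fell from 22102, 22742 and 22271 to 10892, 10487 and 10111 (-1.09), Epas1, the hypoxia factor HIF-2 alpha, from 3086, 3176 and 2997 to 1223, 1232 and 1216 (-1.33), and Aldoc, a brain-type aldolase, from 107, 110 and 121 to 27.2, 30.9 and 35.3 (-1.85). Of 76 cytosolic ribosomal protein genes 1 was called. That gene, Rplp0, a ribosomal stalk protein often used as a reference in qPCR, had 88275, 90987 and 92376 in D1 and 29869, 29814 and 29627 in MBNL KD (-1.60, SE 0.025, adjusted p = 2.4e-29, edgeR), while Rpl3, with the most counts of the list, was at -0.21. Its libraries were apart in both comparisons, with a difference from RBPMS KD1 of -1.47.

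MBNL KD was also tested directly against RBPMS KD1, with the same 3 MBNL KD libraries as above. There 948 genes were called higher and 972 lower in MBNL KD, 5.88% and 6.03% of 16111 tested and 11.9% in all. Gbp4 was called higher in MBNL KD than in D1 (1.18) and called lower than in RBPMS KD1 (-1.21), where it was itself above D1 (2.38). For Cenpf, Fdps, Csrp1 and Pfkl the difference between the knockdowns was not called (-0.36, -0.67, -0.45 and 0.12), which does not show that the knockdowns act alike. Myh11, which had 4386, 4758 and 4215 in D1 and 6770, 6161 and 6457 in MBNL KD, was called higher than in RBPMS KD1 (1.51), and Acta2 differed by 0.86 without being called. Both mRNAs were lower in RBPMS KD1 than in D1 (log2 fold changes -0.98 and -1.11). In MBNL KD over D1, Acta2 was at -0.25.

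**Figure D5:**
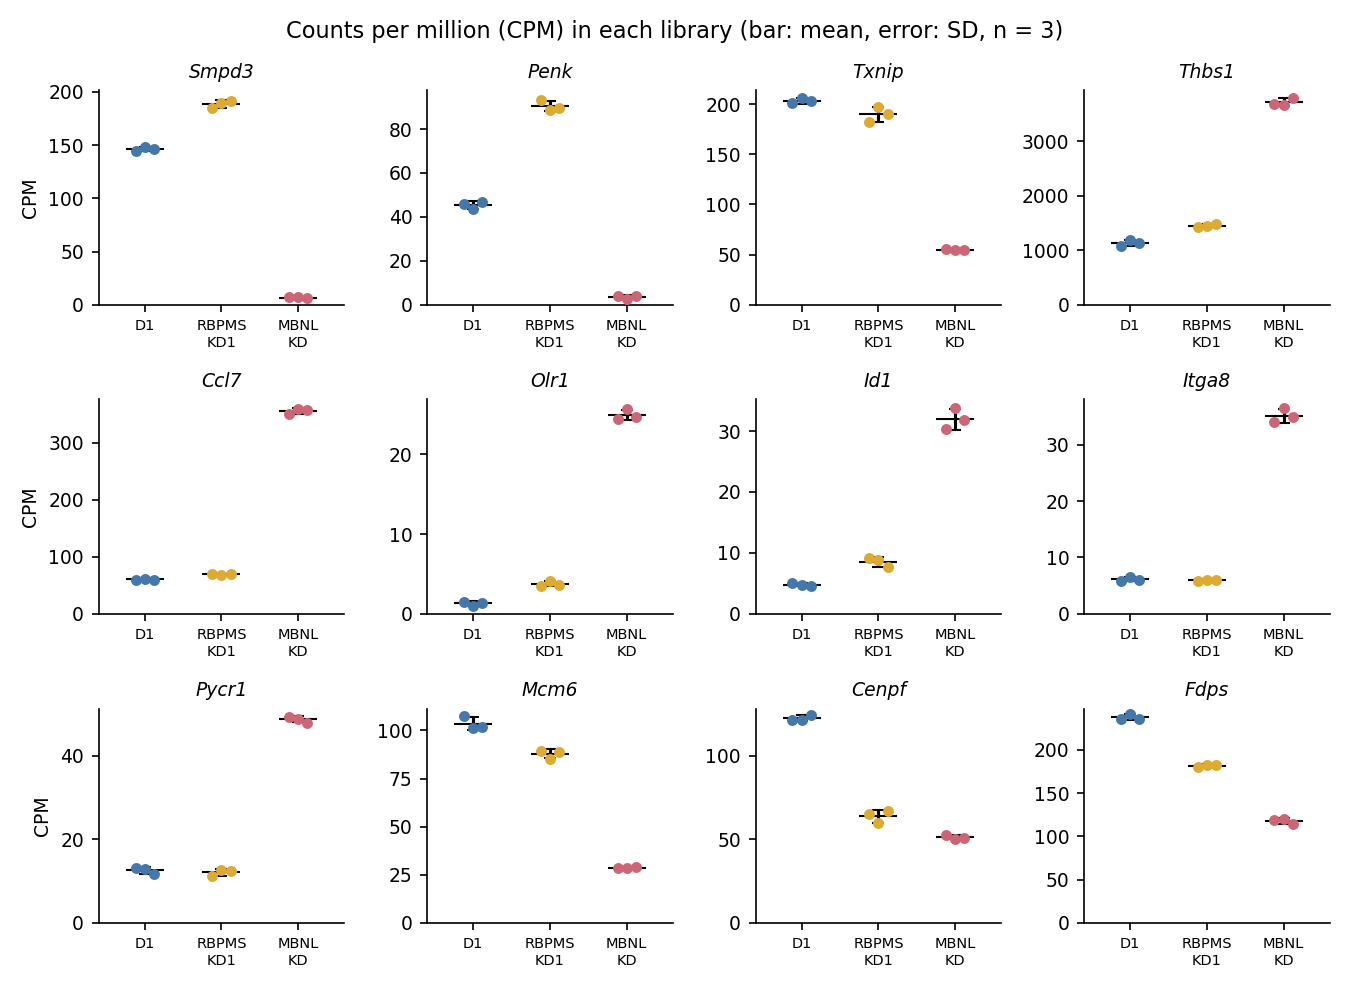
CPM (y axis) of 12 named genes in each library of D1, RBPMS KD1 and MBNL KD (points), with the mean (bar) and SD (error bar, n = 3). Smpd3, Penk and Txnip are low in MBNL KD alone, Thbs1, Ccl7, Olr1, Id1, Itga8 and Pycr1 are highest there, and for Cenpf and Fdps RBPMS KD1 lies between the other groups.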

How the data were processed

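The authors deposited a table of counts per gene symbol. Per the labels and methods, poly(A) RNA was sequenced in pairs, reads were subsampled, aligned with STAR 2.7.11b to mRatBN7.2 and counted with featureCounts against RefSeq; strand and mate settings are not stated. Even counts were 2.53 to 2.73 times as frequent as odd ones among counts up to 20, so halved counts were tried. The authors also deposited a normalised signal table (noisyR, then quantile normalization of all 12 libraries), used for 1 alternative.

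In R 4.3.3, edgeR 4.0.16 (filterByExpr, TMM, quasi-likelihood fit and F test, Benjamini-Hochberg adjustment) was fitted to the 6 libraries compared, without a replicate block. SE is the log2 fold change over the square root of F. DESeq2 1.42.0 and limma 3.58.1 gave alternatives. With 3 libraries against 3, an exact permutation test cannot go below 0.1. On simulated counts 200 of 200 changed genes were recovered, with 3 false calls, in a fit of 15824 genes that included the 200. All changes set lay beyond the call threshold and in genes without low counts, and no other gene was changed. Recovery near the threshold or at low counts was therefore not tested. A limit of 3 counts was between 0.0331 and 0.0371 CPM in these libraries and covers counting error only.

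Genes were named by rule: the MBNL genes; the 12 largest rises and falls among called, non-overlapping genes of at least 500 scaled counts without a provisional symbol; the 8 called genes with the most counts; and of each list up to 4 called genes each way with at least 50 scaled counts and the gene with the most counts in D1. Members, 47 lists and tests were chosen with earlier results of these data known, and 5 lists were added later. Same-numbered libraries did not deviate together (r between -0.022 and 0.0027), so numbers were not taken as pairs. Splicing tables were not used here, and some genes that the rule selects are not reported here.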

Additional observations from a re-analysis of the deposited data

How the results depend on the processing

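DESeq2's size factors, DESeq2, 1 fit of all 12 libraries, halved counts and the replicate block kept the side of the threshold of all 224 named genes. The total of calls did move with halved counts. There 14899 genes were tested and 1386 called against D1 (817 higher, 569 lower), fewer than the 1643 of the fit reported. Against D1, 784 genes were called with limma on the normalised values (388 higher, 396 lower) and 847 in a test against a fold change of 2 (483 higher, 364 lower), where 1643 were called in the fit reported. With at least 10 counts in every library 628 were higher. Against RBPMS KD1 the numbers were 1050 with limma (465 higher, 585 lower) and 973 in the test against a fold change of 2 (452 higher, 521 lower). The cause was not tested, apart from the stricter rule of the fold test and the fewer genes left by the count minimum. COX1, at 0.19, turned to -0.16 under quantile normalization and to -0.26 with limma on the normalised values, so no direction is given for it. Under quantile normalization 15 named genes came below the call, with limma 34 and in the fold test 40. Leaving out 1 library gave between 1657 and 1728 calls against D1 (higher 986 to 1049, lower 664 to 710), and between 2 and 8 named genes came below the call. The replicate block gave 1634 calls against D1 (971 higher, 663 lower) and 1915 against RBPMS KD1. Of 6 libraries 2 correlated best with their own number over 12316 genes, so the numbers gave no pairing. Depth limits genes near 3 counts, such as Pdgfb and Lgr6 in D1.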

Other observations

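A few genes that usually mark other tissues were counted in these cells and changed with the knockdown. Syt1, the calcium sensor of synaptic vesicles, had 288, 282 and 304 scaled counts in D1 and 53.4, 36.7 and 31.0 in MBNL KD (log2 fold change -2.84, adjusted p = 4.2e-15, edgeR), and its difference from RBPMS KD1 was -2.82. Upk3b, a uroplakin-like gene of mesothelium, had 8852, 8821 and 8832 and 3694, 3543 and 3325 (-1.33), while Msln, another mesothelial gene, had 13890, 14624 and 14521 and 16604, 17472 and 17053 (0.25). Mcam, an adhesion molecule of pericytes and smooth muscle, rose from 2695, 2685 and 2685 to 5678, 5492 and 5622 (1.06) and was also called higher than in RBPMS KD1 (1.62). The groups of these 4 genes did not overlap. Of 9 neural markers tested, 2 were called higher and 2 lower (44.4% in all, where 10.2% of all genes were called). The higher ones included Gfap (2.23), which had few counts in every library, and the lower ones were Syt1 and S100b (-1.77). The neural list had 4 of 19 markers at or under 3 counts in every library and held between 32.5 and 35.3 CPM in D1 and between 31.4 and 33.2 in MBNL KD. The epithelial list had 6 of 15 at or under 3 counts and held between 299 and 306 CPM in D1 and between 304 and 314 in MBNL KD, of which Msln and Upk3b together made up 80.7%.

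Of 35 genes whose exons are known to be misspliced in myotonic dystrophy, 4 were called higher and 2 lower in total counts (6.1% and 4.14% of all genes). The 2 lower were Mbnl1 and Mbnl2, the siRNA targets themselves. The list's share of 17.1% includes them and so is not comparable with the 10.2% of all genes called. The 4 higher, named after their values were seen, were Tnnt2 (1.60), Neb, Cacna1s and Pdlim3. Splicing was not measured in these counts.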
